A study of Rattus norvegicus with 4 samples.

Results

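The circadian clock genes Arntl, Clock, Per1, Per2, Per3, Cry1, Cry2, Nr1d1, Nr1d2 and Dbp were followed on 4 one-colour expression arrays of cultured rat testicular peritubular myoid cells, the contractile cells that surround the seminiferous tubules. Members were all non-control probes that carried the name of 1 of these 10 genes or an older symbol of it, which gave 12 of 41012 probes, or 10 of 35658 gene names. Each gene had 1 probe except Per3, which had 3. Of the 12 probes, 11 were well above background on all 4 arrays and entered the tests, so every gene was measured by at least 1 tested probe. The remaining probe, from another Per3 transcript record (chr5:168184060-168184119 of the rat build rn4), stayed at background throughout.

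Cells came from testes of male rats aged 40 days and were kept for 4 days in DMEM/Ham F-12 with defined growth factors. The 2 testosterone arrays (testosterone 1 and 2) held RNA of cells that received pulses of 1e-07 M testosterone, and the 2 control arrays (control 1 and 2) held RNA of control cells. What the control cells received, the strain, the number of rats and the time of collection are not given in the labels, and the labels attach the same treatment text to both groups. The labels also do not say what the numbers 1 and 2 stand for, or whether equally numbered arrays came from separate cultures or animals, and p-values therefore describe no more than how these arrays scatter, which may be technical.

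As background, the clock is a feedback loop in which ARNTL (BMAL1) and CLOCK pair up, bind E-boxes in DNA and switch on the Per, Cry, Nr1d and Dbp genes. The PER and CRY proteins then inhibit that pair and form the repressor arm, while NR1D1 and NR1D2 (REV-ERB) form a second loop that represses Arntl through ROR elements, and DBP activates genes with D-boxes. In the testis, Arntl is known for its role in steroid production by Leydig cells, and cultured cells of many tissues carry the loop without the brain's pacemaker.

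Stretches of 3 promoters are printed because they carry binding letters of the clock's arms: the Per2 promoter for the repressor arm, the Arntl promoter for the activator arm and the Nr1d1 promoter for the second loop. They come from RefSeq on build GRCr8 and run 5' to 3' on the gene's strand. Capitals mark a D-box (TTATGTAA) and then an E'-box (CACGTT) in Per2, an ROR element in Arntl and an E-box (CACGTG) in Nr1d1. The Per2 stretch is chr9:99497025-99497210 on the minus strand, the Arntl stretch chr1:176766283-176766327 on the plus strand, and the Nr1d1 stretch chr10:84229615-84229670 on the minus strand.
Per2: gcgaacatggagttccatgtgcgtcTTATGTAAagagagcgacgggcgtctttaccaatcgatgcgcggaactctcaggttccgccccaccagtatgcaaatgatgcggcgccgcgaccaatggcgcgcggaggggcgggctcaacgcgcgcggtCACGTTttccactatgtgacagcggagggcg
Arntl: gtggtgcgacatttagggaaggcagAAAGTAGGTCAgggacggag
Nr1d1: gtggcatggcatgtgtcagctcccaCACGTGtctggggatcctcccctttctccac

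RefSeq windows from 250 bases before to 50 bases after the transcript start were matched for 9 of the 10 genes, with 2 windows each for Clock and Nr1d1, and Cry1 was not matched. Both strands of these 11 windows and of all 33469 windows were searched, and no matches overlapped in the members' windows. The E-box CACGTG was found in 1 of the 11 windows, that of Nr1d1, against 6.42% of all windows. The variant E'-box CACGTT was found in 3 windows, those of Per2, Cry2 and the other Nr1d1 start, against 4.83% of all windows. A D-box (TTATGTAA or TTACGTAA) was found in Per2, against 1.01% of all windows, and the ROR element consensus in Arntl, against 0.356%. The cyclic AMP element TGACGTCA was in no member's window and in 1.83% of all windows. The steroid receptor element, the half-sites AGAACA and TGTTCT set 3 bases apart, which the androgen receptor can bind, was in no member's window and in 0.0149% of all windows. These matches describe letters in short windows and not binding, and a motif missing here may lie elsewhere in the gene.

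**Figure D1:**
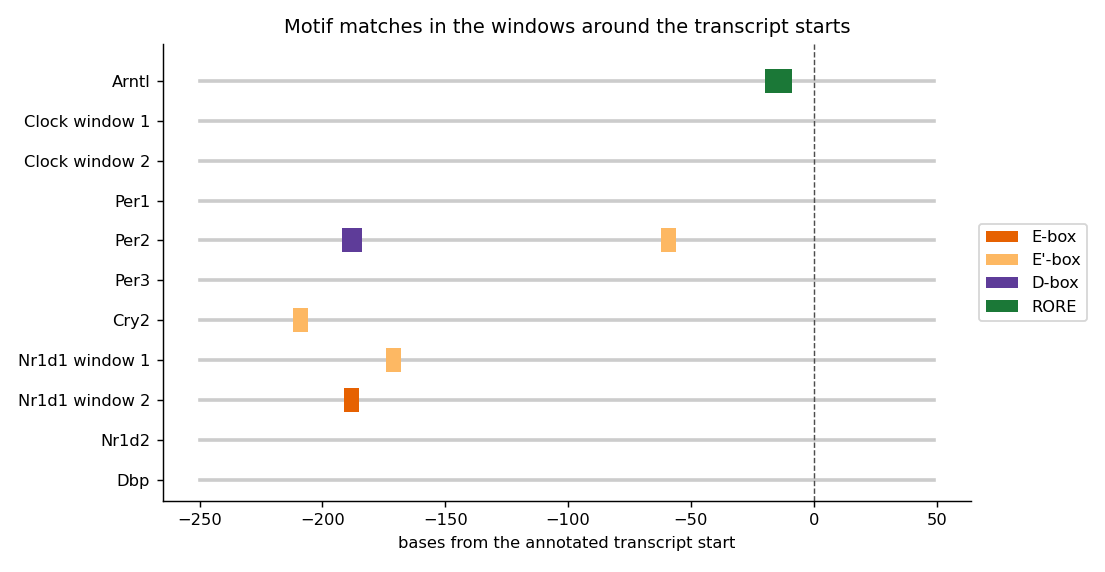
Positions of the motif matches (coloured blocks) in each RefSeq window (grey lines) against the distance in bases from the transcript start (dashed line). Per2 carries both a D-box (192 to 185 bases before the start) and an E'-box (62 to 57 bases before), and the ROR element of Arntl lies 20 to 10 bases before the start.

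Levels are given on the log2 scale of the processed signal relative to the array's 75th percentile, so that a value of 0 means as bright as that percentile. Levels of different probes are not set against each other, apart from the summed marker levels below. The 4 arrays shared 1 slide and 1 scan, and 63.5% to 68.2% of their spots were well above background. The arrays numbered 1 lay at slide positions 3 and 4 and those numbered 2 at positions 1 and 2, so number and slide position cannot be told apart. Repeated spots varied more on control 1 (median coefficient of variation 9.52%) than elsewhere (5.25% to 5.53%), and control 1 had 222 spots that had dropped out, against 2 to 21. Only the Per1 spot among the members lay near such spots (2 on control 1).

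The labelled cell type was checked against its markers. Of 9 peritubular and smooth muscle markers, 7 had a probe and 6 were well above background on all arrays; Cnn1 was not on any array, and no probe carried the names Acta2 and Myh11. Over the arrays numbered 2 against those numbered 1, limma called 1.56% of all tested probes higher and 0.529% lower, and 56.5% of differences were above 0. Of the tested peritubular markers, 6 of 6 had a difference above 0, and 1 (Tagln) was called higher. The groups were apart and higher for 5 of these 6, where 36.8% of all tested probes were. Summed linear levels are given as a description and follow a list's brightest probes. They take in every listed gene with a probe, detected or not. For this list they were 65.1 and 75.3 on the arrays numbered 1 and 75.5 and 87.7 on those numbered 2. Macrophage markers (5 of 6 with a probe, all 5 detected on every array) summed to 137 and 158 against 111 and 114, with 3 members below 0, among them the bright Cd68 and Tyrobp, 2 above 0 (Aif1 and Cd163) and 0 called. Leydig markers (5 of 6 detected on every array, Lhcgr on none) summed to 94.0 and 101 against 121 and 105, but 4 of the 5 tested were below 0 and only Star was above 0, with a median of -0.30 and 0 called. Germ cell markers (2 of 5 detected on every array, Acrv1 on none) summed to 0.430 and 0.385 against 4.41 and 4.46, with 3 of 3 above 0 and 2 called higher (Prm1 and Tnp1). For the other, Ddx4, the numbers overlapped (interval -3.38 to 5.74). It read -2.56 on testosterone 1, -7.59 on control 1, -3.83 on testosterone 2 and -3.96 on control 2. Sertoli markers (4 of 8 on every array, Wt1 on none) summed to 5.0 and 5.84 against 9.20 and 8.70, with 3 of 4 above 0 and 0 called. Endothelial markers (3 of 5, Tek on none) summed to 0.674 and 0.803 against 1.12 and 1.62, with 2 of 3 above 0 and 1 called higher (Kdr). Mesothelial markers (3 of 4 with a probe, all 3 detected) summed to 0.243 and 0.270 against 0.949 and 0.886, with 2 of 3 above 0 and 1 called higher (Msln). The part of these lists in the differences between numbers described next was not tested, and in RNA from whole cultures fewer cells of a type and less RNA per cell cannot be told apart.

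The arrays numbered 2 were first compared with those numbered 1, 2 against 2, over both treatments. All 5 genes of the repressor arm, Per1, Per2, Per3, Cry1 and Cry2, lay lower on both arrays numbered 2 than on both arrays numbered 1. Of all tested probes, 26.8% did so. Per3 showed the largest difference, 2.07-fold lower, and was the only member called, where 0.529% of tested probes were called lower. The activators Arntl and Clock, the second-loop repressors Nr1d1 and Nr1d2 and the output gene Dbp differed by 0.20 or less on the log2 scale.

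**Figure D2:**
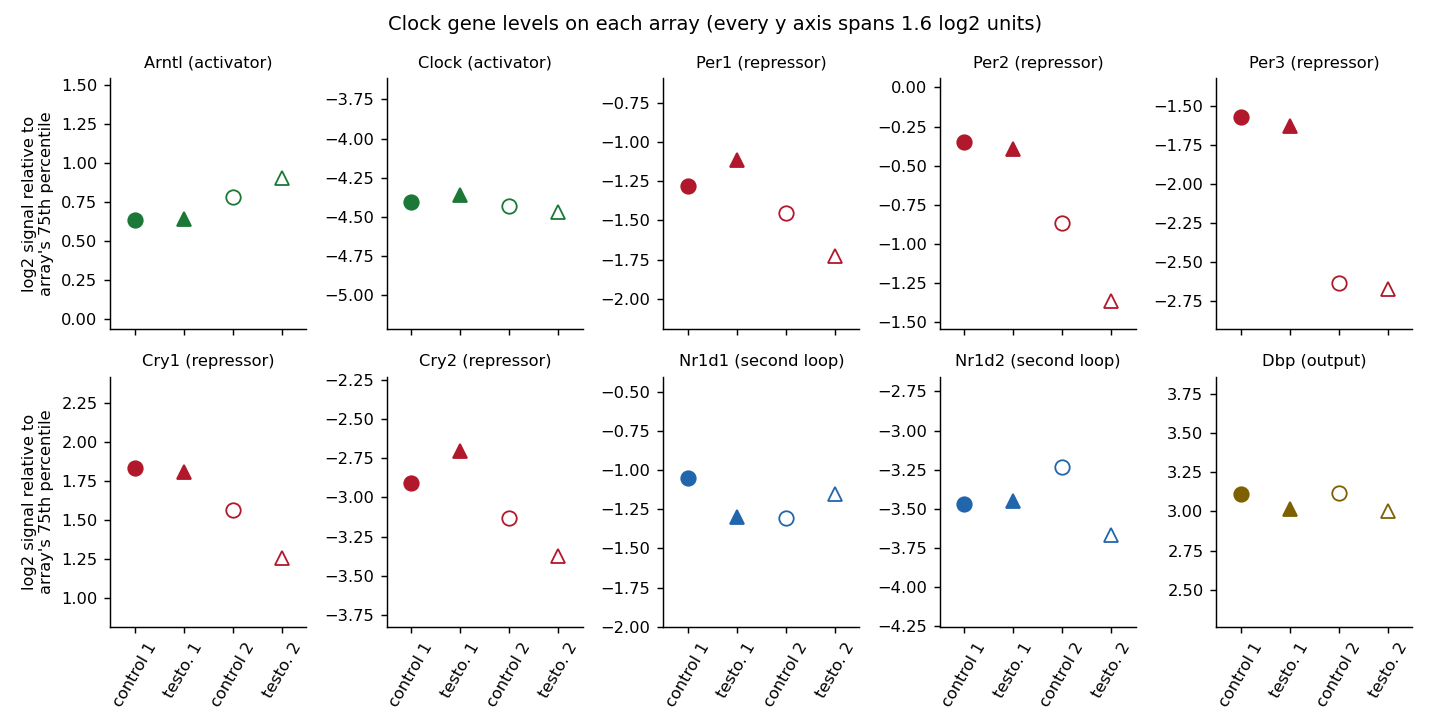
Level of each clock gene (log2 signal relative to the array's 75th percentile, y axis, each spanning 1.6 units) on every array (x axis), with circles for control, triangles for testosterone, filled symbols for number 1 and open symbols for number 2. The open symbols of Per1, Per2, Per3, Cry1 and Cry2 all lie below the filled ones, while those of Nr1d1, Nr1d2 and Dbp mix with them.

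Per3, a PERIOD protein that takes part in the repressor complex but is less needed for the rhythm than its relatives, was measured by a probe at chr5:168152851-168152910. Its level was -1.63 on testosterone 1, -1.58 on control 1, -2.67 on testosterone 2 and -2.63 on control 2. Both arrays numbered 2 were lower than both numbered 1, and within each number the testosterone and control arrays lay close together. The mean fell from -1.60 ± 0.04 to -2.65 ± 0.03 (SD, n = 2), a difference of -1.05 with a 95% interval from -1.34 to -0.76 and an adjusted p of 0.0386 (limma, Benjamini-Hochberg over 25881 probes). It stood at percentile 0.835 of the differences of all tested probes. The difference was -1.04 between the testosterone arrays and -1.06 between the control arrays.

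The dimmer Per3 probe, at chr5:168152839-168152847, read -3.96 on testosterone 1, -3.69 on control 1, -5.0 on testosterone 2 and -4.95 on control 2. Again the groups did not overlap, and the difference was -1.14 (interval -1.52 to -0.77), 2.21-fold lower, with a limma adjusted p of 0.0463. With normexp correction and quantile normalization this probe's difference was -0.28 (adjusted p = 0.0809), and its call was also lost with no detection filter (0.104), with treatment as a covariate (0.0992) and without each array in turn (0.0537 to 0.233). The normexp setting adds an offset of 50 to every signal, which shrinks the log2 differences of dim probes. The dimmer Per3 probe had processed signals of 11.1 to 32.4 intensity units. Both probes draw on the same transcript record and the same RNA, so they are not independent measurements. The adjusted p of the brighter probe was 0.0852 with no detection filter and 0.0995 with treatment as a covariate, and it was 0.0709, 0.109, 0.233 and 0.107 without testosterone 1, control 1, testosterone 2 and control 2, while the difference stayed between -1.07 and -1.02. No array could thus be left out with the call kept.

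Per2, a core PERIOD repressor, was measured by a probe at chr9:90645610-90645669. Its level was -0.39 on testosterone 1 and -0.35 on control 1, and -1.37 on testosterone 2 and -0.86 on control 2. The arrays numbered 1 were nearly equal, and those numbered 2 were both lower and further apart. Their means were -1.11 ± 0.36 on the arrays numbered 2 and -0.37 ± 0.03 on those numbered 1 (SD, n = 2), a difference of -0.75 (interval -1.28 to -0.21) that did not pass the adjustment (limma adjusted p = 0.106). It was -0.98 between the testosterone arrays and -0.51 between the control arrays.

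Per1, a PERIOD gene known for its rapid response to outside signals, was measured by a probe at chr10:55867840-55868424. It read -1.12 on testosterone 1, -1.28 on control 1, -1.73 on testosterone 2 and -1.45 on control 2. Testosterone 1 was the highest array and testosterone 2 the lowest, with both controls between them. The difference between numbers was -0.39 (interval -0.80 to 0.01; limma adjusted p = 0.177), made up of -0.61 between the testosterone arrays and -0.18 between the control arrays.

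Cry1 and Cry2 encode the cryptochromes, the direct inhibitors of the CLOCK and ARNTL pair. Cry1 (probe at chr7:20708985-20709044) read 1.81 on testosterone 1, 1.83 on control 1, 1.26 on testosterone 2 and 1.57 on control 2. Cry2 (probe at chr3:76802827-76802886) read -2.70, -2.91, -3.37 and -3.13 in the same order. For both genes the groups were apart and testosterone 2 was the lowest array. The difference was -0.41 for Cry1 (interval -0.80 to -0.01; limma adjusted p = 0.165) and -0.45 for Cry2 (interval -0.85 to -0.05; limma adjusted p = 0.144). It was larger between the testosterone arrays (-0.55 and -0.67) than between the control arrays (-0.26 and -0.23) for both genes, which was not tested.

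In the activator arm, Arntl (probe at chr1:171161969-171162028) read 0.64 on testosterone 1, 0.63 on control 1, 0.90 on testosterone 2 and 0.78 on control 2. It was the only member whose arrays numbered 2 both lay above those numbered 1, with a difference of 0.20 (interval -0.10 to 0.51; limma adjusted p = 0.301). Scaling each array to its median brought that difference to 0.0026. Clock (probe at chr14:34247245-34248295), its partner, read -4.36, -4.41, -4.47 and -4.43 in the same order. These 4 values span little, and the difference was -0.07 (interval -0.35 to 0.22; limma adjusted p = 0.706), although the groups were apart. The Clock probe was dim, with processed signals of 16.0 to 22.5 intensity units.

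In the second loop, Nr1d1 (probe at chr10:87543165-87543519) read -1.30 on testosterone 1, -1.05 on control 1, -1.15 on testosterone 2 and -1.30 on control 2. Nr1d2, for which no position is used here, read -3.45, -3.47, -3.67 and -3.23 in the same order. The numbers overlapped for both genes, and their differences were -0.05 (interval -0.44 to 0.33) and 0.01 (interval -0.48 to 0.49); the latter turned to -0.19 with median scaling and to -0.10 with normexp correction and quantile normalization. Dbp (probe at chr1:96178020-96178079), an output gene that the CLOCK and ARNTL pair drives directly, read 3.01, 3.11, 3.0 and 3.12 in the same order. Its arrays numbered 2 and 1 had the same mean to the second decimal, 3.06, and the difference was -0.0045 (interval -0.32 to 0.31), or 0.01 in the authors' deposited values. These intervals reach to -0.48 and 0.49 on the log2 scale, so smaller differences in these 3 genes were not detectable with 4 arrays.

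Read against the whole array, 1 of the 10 genes was called lower, where 0.529% of all tested probes were, and 0 were called higher, where 1.56% were. Groups apart and lower were found for 6 of 10 genes (the 5 repressors and Clock), against 26.8% of tested probes, and apart and higher for 1 (Arntl), against 36.8%. At an unadjusted p under 0.05, 4 of 5 PER and CRY genes were lower (Per2, Per3, Cry1 and Cry2), against 11.8% of tested probes, and Per1 had an unadjusted p of 0.0536 in limma. That count was 2 without testosterone 1, without control 1 or without testosterone 2, and 5 without control 2; it was also 2 with treatment as a covariate. The median difference was -0.45 over the 5 repressors, -0.23 over the 10 genes and 0.06 over all tested probes. Median scaling moved the median of all tested probes to -0.14, a shift common to every probe. Relative to the median of all tested probes the differences were -1.11 for Per3, -0.81 for Per2, -0.51 for Cry2, -0.47 for Cry1, -0.46 for Per1, -0.13 for Clock, -0.12 for Nr1d1, -0.07 for Dbp, -0.05 for Nr1d2 and 0.14 for Arntl. With normexp correction and quantile normalization, where that median was -0.03, the differences were -0.75 for Per3, -0.66 for Per2, -0.48 for Cry1, -0.33 for Per1 and -0.29 for Cry2. The offset of 50 in that setting shrinks the differences of dim probes, and Cry2 had processed signals of 34.1 to 71.1 intensity units. As plain differences, median scaling gave -0.27 for Clock, -0.25 for Nr1d1 and -0.20 for Dbp, and none of the 3 was called.

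**Figure D3:**
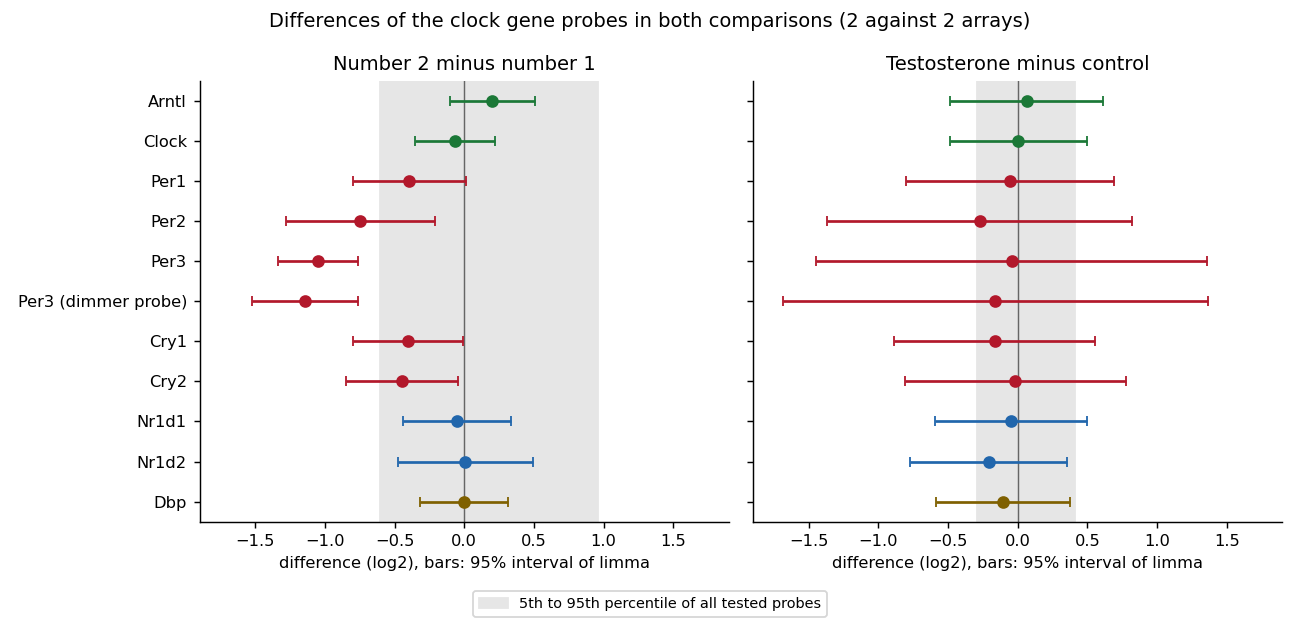
Difference (points, log2, x axis) with limma's 95% interval (bars) for each tested clock probe (y axis), for number 2 minus number 1 (left) and testosterone minus control (right), 2 against 2 arrays. Grey bands span the 5th to 95th percentile of all tested probes; Per2 and both Per3 probes lie below the band on the left, and all intervals on the right cover 0.

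The study's own question was which genes differ in peritubular cells given testosterone, and here the 2 testosterone arrays were compared with the 2 control arrays. No clock gene passed the test in either direction. Dbp was the only member whose groups did not overlap, and its difference was small. Groups were apart and lower for 8.94% of all tested probes, and apart and higher for 6.13%. The largest difference among the 10 genes was that of Per2, -0.27 on the log2 scale, and its interval ran from -1.37 to 0.82.

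With testosterone, Dbp read 3.01 ± 0.0092, and in control 3.12 ± 0.0028 (SD, n = 2). The difference was -0.11, with -0.10 between the arrays numbered 1 and -0.12 between those numbered 2. The interval of limma, which combines the probe's own spread with that of all probes, ran from -0.59 to 0.37. An exact permutation test of 2 against 2 arrays cannot give a 2-sided p under 0.333. The other values were 0.07 for Arntl (interval -0.48 to 0.61), 0.01 for Clock (-0.49 to 0.50), -0.06 for Per1 (-0.80 to 0.69) and -0.04 for Per3 (-1.45 to 1.36). Cry1 stood at -0.17 (-0.89 to 0.56), Cry2 at -0.02 (-0.81 to 0.78), Nr1d1 at -0.05 (-0.60 to 0.50) and Nr1d2 at -0.21 (-0.77 to 0.35). Every interval covers 0, and those of Per2 and Per3 are the widest, as the arrays of 1 treatment lay far apart for these genes. Differences smaller than these intervals were not detectable with 2 arrays a group, and a missing call does not show that the levels were equal.

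Over the 10 genes, 0 were called, where 0.0% of all tested probes were, and 0 had an unadjusted p under 0.05 in limma, where 0.804% of tested probes did. Groups apart and lower were found for 1 gene (Dbp), against 8.94% of tested probes, and apart and higher for 0, against 6.13%. The difference was below 0 for 8 of the 10 genes, against 52.3% of tested probes, with a median of -0.05 over the 10 genes and -0.0087 over all tested probes.

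The testosterone difference was then read between the 2 arrays of each number, 1 array against 1, without a test. Among the arrays numbered 1, it was below 0 for 5 of 10 genes, where 60.9% of all tested probes were. Among those numbered 2 it was below 0 for 8 of 10, where 44.7% were, and these 8 held all 5 repressors. Per2 gave -0.04 for number 1 and -0.50 for number 2, and Cry1 -0.03 and -0.31. For Per3 both values were near 0 (-0.05 and -0.04). Arntl gave 0.01 and 0.12. The signs were opposite for 5 genes, Clock, Per1, Cry2, Nr1d1 and Nr1d2. Testosterone 2 was the lowest of the 4 arrays for 8 of 10 clock genes (all but Arntl and Nr1d1), where 25.4% of tested probes had it lowest.

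**Figure D4:**
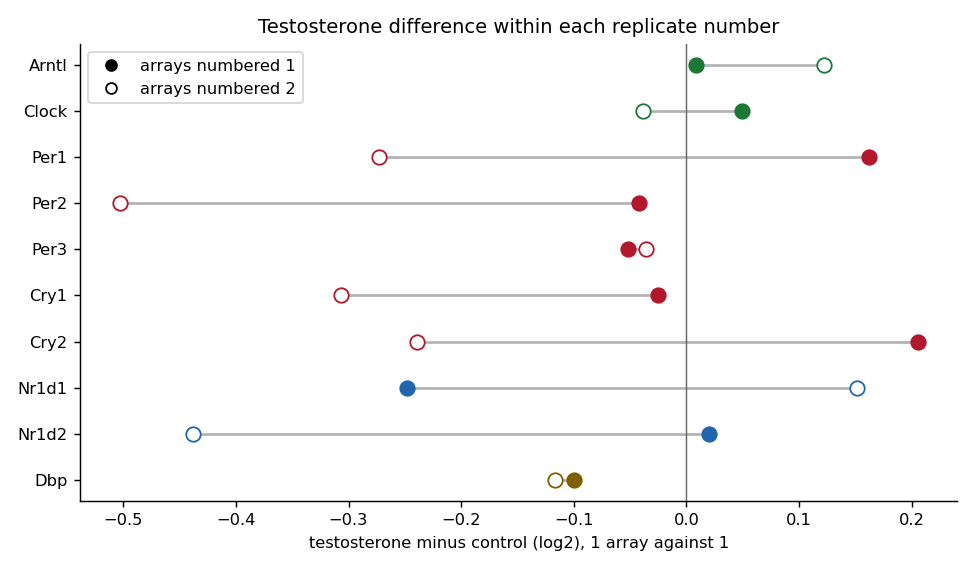
Testosterone minus control (log2, x axis) for each clock gene (y axis) between the 2 arrays numbered 1 (filled) and the 2 numbered 2 (open), 1 array against 1, with no error. The open points of Per1, Per2, Cry1, Cry2 and Nr1d2 lie between -0.24 and -0.50, and those of Arntl and Nr1d1 lie above 0.

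Of 28 further genes of the clock pathway, 24 had a probe and 23 were tested. Between numbers, 0 were called, where 2.09% of tested probes were called in either direction; 4 were lower and 2 higher at an unadjusted p under 0.05 in limma, against 11.8% and 17.6% of tested probes. Their differences were below 0 for 16 and above 0 for 7, against 43.5% and 56.5% of tested probes, with a median of -0.08 against 0.06 over all tested probes. Nfil3, a repressor that binds the same D-boxes as DBP, read 0.02 on testosterone 1, 0.11 on control 1, 1.20 on testosterone 2 and 0.64 on control 2. Its arrays numbered 2 were both higher, with a difference of 0.85 (interval 0.27 to 1.44; limma adjusted p = 0.0985). Bhlhe40 (DEC1), which represses at E-boxes, read 2.27, 2.25, 1.62 and 1.44 in the same order. Its arrays numbered 2 were both lower, by -0.72 (interval -1.05 to -0.40; limma adjusted p = 0.0619). Smaller differences were those of Wdr5, a partner of PER complexes (-0.54), the AMP kinase subunit Prkaa1 (-0.44), the casein kinase Csnk1d, which phosphorylates PER proteins (-0.35), and Arntl2, a relative of Arntl (0.31), none of which passed the adjustment.

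**Figure D5:**
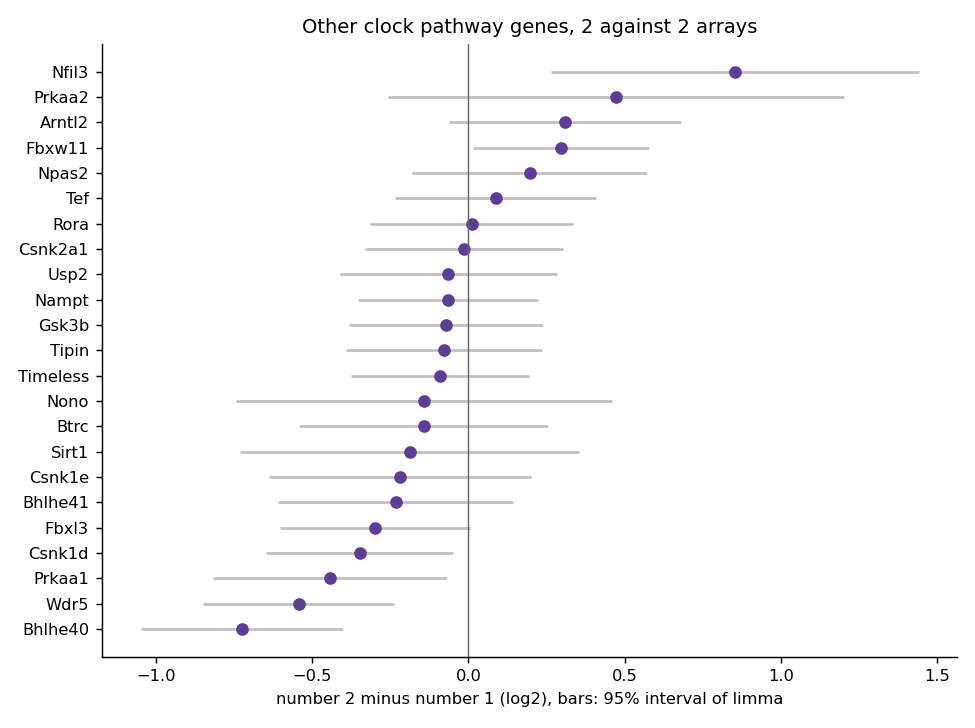
Number 2 minus number 1 (points, log2, x axis) with limma's 95% interval (bars) for the 23 tested further genes of the clock pathway (y axis), 2 against 2 arrays, in order of the difference. Nfil3 lies highest at 0.85 and Bhlhe40 lowest at -0.72.

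Between testosterone and control, 0 of the 23 were called, 0 had an unadjusted p under 0.05 in limma, 10 differences were below 0 and 13 above (52.3% and 47.7% of tested probes), and the median was 0.0059 against -0.0087 over all tested probes. The deacetylase Sirt1 had the largest difference, 0.34 (interval -0.21 to 0.90), followed by the casein kinase Csnk1e (0.24) and Nfil3 (0.24). Btrc, a ubiquitin ligase subunit that targets PER proteins, stood at -0.17, Bhlhe41 (DEC2) at -0.17 and Arntl2 at 0.17. No value of these 6 genes passed the limma test.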

How the data were processed

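Total RNA for 2 testosterone and 2 control samples was amplified from oligo-dT, labelled with Cy3 and hybridised to an Agilent 4x44k rat design, per the labels' protocols. Feature Extraction 11.5.1.1 made the scanner files, per the file headers (10.5 in the submitters' processing notes). The deposited scanner files give the processed signal of each spot as an intensity on a linear scale, and the probe positions refer to rn4 per the file headers. The table deposited by the authors holds log2 values, each equal to the log2 processed signal minus 1 constant per array (8.79, 8.63, 8.38 and 8.55 for testosterone 1, control 1, testosterone 2 and control 2, over 40749 probes printed once), with column medians of -3.61, -3.62, -3.34 and -3.45, so its scale, centring and direction are known.

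From the scanner files, log2 processed signals were taken relative to the 75th percentile of an array's non-control spots. Spots of a probe were averaged after leaving out controls and flagged outliers, and saturated spots were kept. Probes were tested when both arrays of 1 treatment group or more had them well above background (25919 of 41012, less 38 with a missing value). The tests used lmFit and eBayes of limma 3.58.1 under R 4.3.3 (2-sided, no covariate, Benjamini-Hochberg over 25881 probes), called at an adjusted p under 0.05. The fits were first run on simulated arrays that varied independently, whereas same-numbered arrays here deviated together (r = 0.473 across probes). The number of arrays limits the precision.

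Sample groups and numbers came from the titles. The members, the further clock genes and the marker lists (peritubular and smooth muscle, Sertoli, Leydig, germ cell, macrophage, endothelial, mesothelial) were chosen with earlier results of these data known. All members are named, with the brightest probe standing for Per3 in counts, and of the further clock genes the 6 with the largest difference in each comparison among those well above background on all arrays. A spot counted as dropped when at least 2 log2 units below the lowest of the other arrays, and a probe as near when at least 2 such spots lay within 5 rows and columns. Alternatives were the normalization (normexp, offset 50, and quantile), scaling, filters, floor, 1 probe per gene, the authors' values, a covariate and leaving out each array. Exon and intron placement of the probes and probe sequences were not used here.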

Additional observations from a re-analysis of the deposited data

Results flagged for a closer look

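For 5 clock genes the testosterone array lay above the control array in one number and below it in the other. With 1 array per treatment and number this difference was not tested, and its cause was not tested either. For Clock, testosterone minus control was 0.05 among the arrays numbered 1 and -0.04 among those numbered 2, which differ by -0.088. Per1 gave 0.16 and -0.27, a change of -0.44, and Cry2 gave 0.21 and -0.24, a change of -0.44. Nr1d2 gave 0.02 and -0.44, a change of -0.46. Nr1d1 ran the other way, with -0.25 and 0.15, a change of 0.40.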

How the results depend on the processing

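Over the alternatives that kept all 4 arrays, 183 of the single-probe values kept direction and side of the threshold, 5 lost the call and 6 changed sign. The filters, the floor, 1 probe per gene and the covariate left these differences as they were. There only the side of the threshold could change, so most of the kept directions were fixed in advance. A sign could change only with normexp and quantile normalization, median scaling or the authors' values. The sign changes were those of Arntl (-0.00056) and Clock (-0.060) in testosterone minus control and of Nr1d2 (-0.19) in number 2 minus 1 with median scaling, of Nr1d2 with normexp and quantile normalization (-0.10), and of Clock in testosterone minus control (-0.0017) and Dbp in number 2 minus 1 (0.011) with the authors' values. Between numbers, 542 probes were called (405 higher, 137 lower). There were 2627 with normexp and quantile normalization (1125 higher, 1502 lower), 1429 with median scaling (552 higher, 877 lower), 2213 among probes well above background on all arrays, 1103 with a floor, 1546 without probes near dropped spots, 0 with no detection filter and 0 with the replicate block and treatment as a covariate. Per3 was the clock gene called; 0 were called with no filter and 0 with the block. The brighter Per3 probe then had a limma adjusted p of 0.0852 and 0.0995, and the dimmer one of 0.104 and 0.0992, and of 0.0809 with normexp and quantile normalization, where its difference was -0.28. Same-numbered arrays deviated together from their group means (r = 0.473 across probes), but no label says that numbers pair arrays, and there are only 2 pairs. With the block, 0 probes were called between testosterone and control (740 had an unadjusted p under 0.05, and 208 did in the fit of treatment alone), and 2 clock genes instead of 4 were lower between numbers at an unadjusted p under 0.05. Leaving out each array in turn gave 0 to 67 called probes for testosterone (67 without control 2) and 0 to 558 between numbers (558 without testosterone 1, 36 without control 1, and 0 without testosterone 2 or control 2), 0 clock genes called in both comparisons, and 2 to 5 clock genes lower between numbers at an unadjusted p under 0.05. In these fits a lone array is assumed to vary like the others. Across them, 22 single-probe values changed sign. Testosterone minus control then ranged from -0.064 to 0.19 for Arntl, -0.050 to 0.061 for Clock, -0.36 to 0.25 for Per1, -0.76 to 0.22 for Per2, -0.57 to 0.48 for Per3, -0.79 to 0.47 for its dimmer probe, -0.44 to 0.11 for Cry1, -0.35 to 0.32 for Cry2 and -0.17 to 0.078 for Nr1d1. Number 2 minus 1 ranged from -0.18 to 0.071 for Nr1d1, -0.21 to 0.23 for Nr1d2 and -0.063 to 0.054 for Dbp. The dimmer Per3 probe had processed signals of 11.1 to 32.4 intensity units; signal over background limits what is known of the third Per3 probe, which was not detected.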
